A study of Rattus norvegicus with 8 samples.

Results

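The nuclear genes of oxidative phosphorylation were examined in RNA from the hypothalamus of rats exposed to vaporized cannabis and of air-treated controls. Members were all gene symbols whose names begin like those of the subunits of the 5 complexes, with Nduf for complex I, Sdha to Sdhd for complex II, Uqcr for complex III, Cox4 to Cox8 followed by a, b or c for complex IV and Atp5 for complex V. The names chose 86 of the 18003 gene symbols in the data and 208 of the 98356 polyadenylation sites. The choice by name used no measured value, though the members were chosen with earlier results of these data known. Of the 86 symbols, 73 name subunits, of which 35 belong to complex I, 4 to complex II, 8 to complex III, 12 to complex IV and 14 to complex V. Ndufa4 was counted with complex IV, in which its protein is found. The other 13 symbols were 6 factors that are not subunits (Sdhaf2, Sdhaf3, Sdhaf4, Atp5s, Atp5sl and Cox7a2l), 4 pseudogenes with the ending -ps1 and 3 genes named after their likeness to a subunit.

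Both groups held adult male Long-Evans rats. Cannabis-exposed rats received vapor of cannabis plant matter, and controls received air from a vaporizer with nothing in it. The labels number the controls 1 to 4 and the cannabis rats 1, 2, 3 and 5, with 1 library per rat. The rats fed freely until exposure, were kept without food afterwards, and the mediobasal hypothalamus was taken 1 hour after exposure. WTTS-Seq, the method used, sequences the 3′ ends of polyadenylated RNA. A read stands for 1 transcript end whatever the length of the transcript, and for this reason levels were not divided by length. The unit of every level is the normalized count, which is the read number of a site after division by its library's size factor.

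Oxidative phosphorylation takes place in the inner mitochondrial membrane. Complexes I and II pass electrons from NADH and succinate to quinone, complex III passes them on to cytochrome c, and complex IV reduces oxygen, while complex V (ATP synthase) makes ATP from the proton gradient that complexes I, III and IV build. Most subunits are encoded in the nucleus and a small set in mitochondrial DNA, with complex II wholly nuclear. Neurons depend on this pathway for most of their ATP, and transcription factors such as NRF1, the ETS factor GABP, YY1 and the estrogen-related receptors (ERR) are known to bind promoters of many of its genes.

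Promoters of 3 members are shown because they hold the letters that several of these factors recognise. RefSeq promoters (assembly GRCr8, 250 bases before to 50 bases after the gene start) were matched for 72 of the 86 symbols, 65 of them subunits. All 86 symbols were matched to a current gene name, among them Atp5l (now Atp5mg), Atp5i (Atp5me) and Atp5a1 (Atp5f1a). The motifs searched on both strands were GCGCANGCG for NRF1, CCGGAAG for ETS factors, AAGATGGCG for YY1 and AAGGTCA for ERR, where N is any base. The NRF1 letters read nearly alike on both strands, and a promoter was counted once per motif. A combination of 3 kinds of motif was found in the promoters of Atp5l, Ndufs6 and Ndufa6, printed here 5′ to 3′ on the strand of the gene with every match in capitals. Atp5l (chr8:54130358-54130657, reverse strand) codes for subunit g of ATP synthase, which sits where 2 synthases join. Ndufs6 (chr1:31797150-31797449, forward strand) and Ndufa6 (chr7:115750268-115750567, reverse strand) code for accessory subunits of complex I.
Atp5l: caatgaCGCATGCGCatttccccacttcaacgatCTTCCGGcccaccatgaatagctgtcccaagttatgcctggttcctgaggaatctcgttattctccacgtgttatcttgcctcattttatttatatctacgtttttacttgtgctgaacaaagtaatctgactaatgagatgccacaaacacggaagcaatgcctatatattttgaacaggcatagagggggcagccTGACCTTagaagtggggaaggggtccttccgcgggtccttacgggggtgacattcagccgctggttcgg
Ndufs6: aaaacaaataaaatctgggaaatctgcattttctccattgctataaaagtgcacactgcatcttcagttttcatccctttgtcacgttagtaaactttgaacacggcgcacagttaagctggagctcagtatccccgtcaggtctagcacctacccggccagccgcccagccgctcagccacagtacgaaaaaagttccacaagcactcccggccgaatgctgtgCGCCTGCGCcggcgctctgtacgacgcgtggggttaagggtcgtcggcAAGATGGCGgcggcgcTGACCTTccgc
Ndufa6: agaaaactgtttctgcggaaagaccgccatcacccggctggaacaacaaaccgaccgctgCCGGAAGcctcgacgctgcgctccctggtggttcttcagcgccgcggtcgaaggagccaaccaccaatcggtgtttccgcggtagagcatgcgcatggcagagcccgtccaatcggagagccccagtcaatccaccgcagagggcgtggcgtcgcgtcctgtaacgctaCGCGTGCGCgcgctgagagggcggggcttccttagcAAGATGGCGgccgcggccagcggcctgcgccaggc

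Read in order, the Atp5l capitals are NRF1, ETS and ERR, those of Ndufs6 are NRF1, YY1 and ERR, and those of Ndufa6 are ETS, NRF1 and YY1. In Ndufs6 and Ndufa6 the YY1 letters lie after the gene start. The share of all protein-coding promoters with 3 kinds of motif was not computed. The NRF1 letters were in 17 of 65 subunit promoters (26.2%) and in 8.05% of the 19005 promoters of protein-coding genes. ETS letters were in 17 subunit promoters (26.2%) and in 11.2% of all, YY1 letters in 10 (15.4%) and in 2.29% of all, and ERR letters in 11 (16.9%) and in 3.70% of all. At least 1 motif was found in 38 of the 65 subunit promoters (58.5%) and in 22.3% of all promoters. The median GC content was 56.0% in subunit promoters and 55.3% in all. The shares are descriptions of letters and not of bound factors, and no exposure effect on the members was called that they could be set against.

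The libraries had from 1159811 reads on sites (control 4) to 3706778 (cannabis 2), and the members held between 1.83% and 2.21% of the reads of a library. Gene totals, the sums over all sites of a symbol, were tested for 12114 symbols with a mean of at least 10 normalized counts, and 81 of the 86 members passed this filter. Cox6b2, Cox7a1, Ndufa10l1, Ndufb4l1 and Ndufv3-ps1 did not. Many members were among the most abundant transcripts. Of the 81, 40 (49.4%) were among the 1000 symbols with the highest means, against 8.25% of all tested symbols. The libraries of a group were taken to come from separate rats, and the tests measure the spread between these libraries.

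No member was called as different between cannabis-exposed rats and controls. In limma, 0 of 81 members had P under 0.01 and 0 had P under 0.05, against 29 of the 12114 symbols (0.239%) and 250 symbols (2.06%). Of the 29 symbols, 12 lay higher and 17 lower after cannabis, a split that became 6 and 25 with TMM factors, 6 and 27 in edgeR, 9 and 24 with libraries scaled to equal totals outside mitochondrial symbols and 11 and 48 in DESeq2. After Benjamini-Hochberg adjustment over all symbols, 0 members and 1 symbol (0.00825%) had P under 0.1. edgeR and DESeq2 on the recovered reads also called 0 members at P under 0.01 and 0 at P under 0.05. With 1 rat left out at a time no member had P under 0.01, but the count at P under 0.05 rested on which rat was left out. It was 4 without control 3 (Atp5i, Ndufc2, Ndufv2 and Uqcr10, 4.94% of the members against 3.49% of all symbols), 3 without cannabis 3 (Atp5i, Uqcr10 and Cox6a1, 3.70% against 2.90%), 2 without cannabis 1 (Ndufc2 and Ndufv2, 2.47% against 4.02%), 1 without cannabis 2 (Ndufv1, 1.23% against 2.43%) and 0 without any other rat. Ndufv1 was lower in cannabis-exposed rats in that fit and the others were higher in theirs. The 4 values of 1 group lay wholly above or below those of the other in 0 members and in 224 symbols (1.85%). The smallest limma P of a member was that of Ndufv2, and the adjusted P was 0.999 for every member named here. Beside single genes the P of an exact two-sided permutation test of the 4 against 4 levels is given as exact P, of which the smallest possible is 0.0286. The median log2 fold change, taken as cannabis minus control on the log2(normalized count + 1) scale, was 0.07 over the members and 0.06 over all symbols, and 52 of 81 members (64.2%) and 58.9% of all symbols had a value above 0. The count above 0 depended on the scaling, with 40 members (48.5% of all symbols) with TMM factors, 42 (49.4%) in edgeR, 43 (49.97%) in DESeq2 and 48 (53.9%) with equal totals outside mitochondrial symbols, and it was 37 with the replicate block (51.6%) and 37 without cannabis 2 (53.2%).

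The precision of the comparison was set by the spread between the libraries of a group. The median standard error of a member's log2 fold change was 0.30, and the median half-width of its 95% interval was 0.65, with a range from 0.39 to 1.45. For 58 members (71.6%) the 95% interval stayed within a 2-fold change in either direction, as it did for 59.3% of all symbols. For these 58 a change of 2-fold or more lay outside the interval, and for the other 23 it did not. The group means differed by less than the larger of the group SDs in 75 members (92.6%) and in 89.8% of all symbols. Within controls the highest value was a median of 1.90 times the lowest, and within cannabis-exposed rats 2.05 times. A log2 fold change beyond 0.5 in either direction was seen in 5 members (6.17%) and in 12.2% of all symbols.

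**Figure D1:**
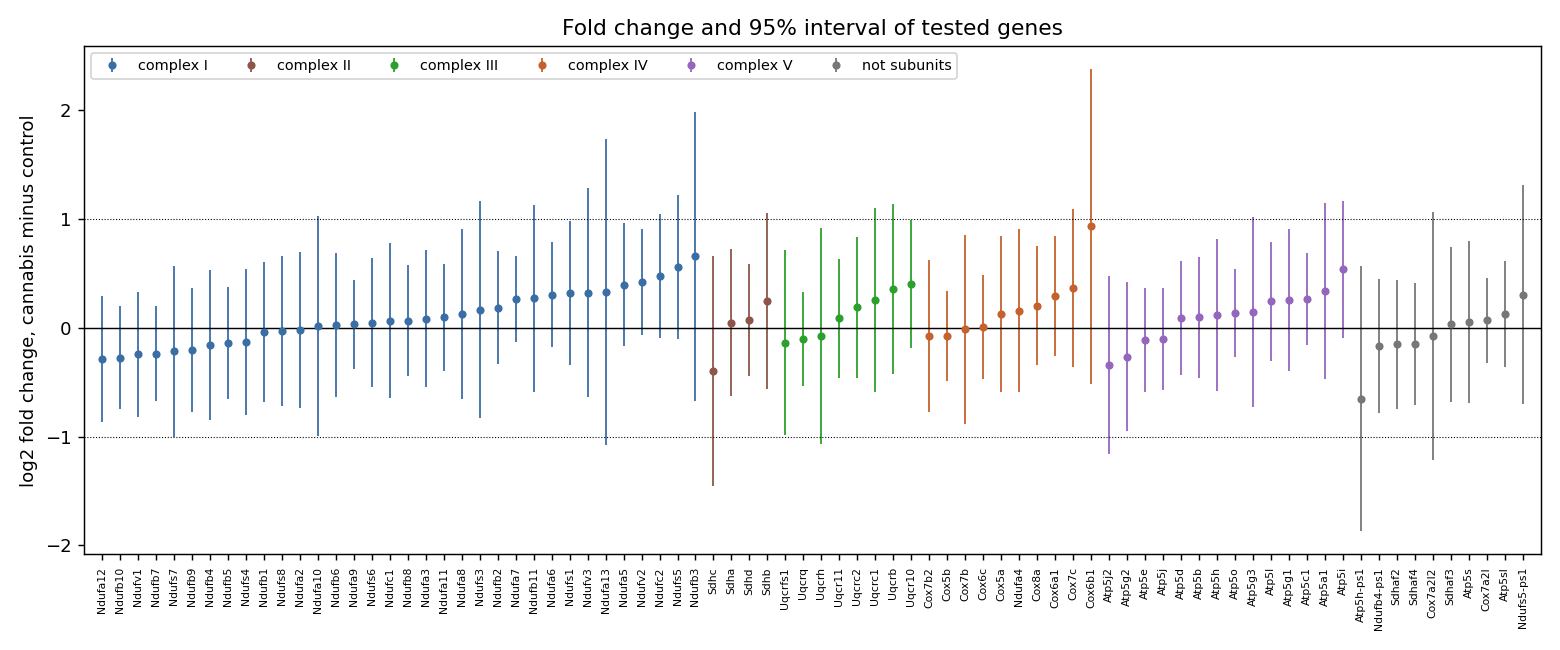
Log2 fold change (cannabis minus control, vertical axis) of 80 of the 81 tested genes (horizontal axis), grouped by complex, with points for the estimate and bars for the 95% interval from limma. Dotted lines mark a 2-fold change in either direction, and every interval crosses 0.

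Complex I, which oxidizes NADH, was represented by 35 subunits, all of which passed the filter. Their summed level was 15236, 14650.2, 15115 and 13955 normalized counts in the 4 controls and 15391, 16693, 13398 and 15285 in the 4 cannabis-exposed rats. These values overlapped, with 14739 ± 580.4 in controls against 15192 ± 1356 after cannabis (SD, n = 4), a ratio of 1.03. Of the 35, 22 had log2 fold changes above 0 and 13 below, from -0.29 to 0.66, with a median of 0.06. The 7 core subunits, which carry the flavin, the iron-sulfur clusters and the quinone site, had 3 values above 0 and a summed ratio of 1.02. The 28 accessory subunits had 19 above 0 and a summed ratio of 1.03.

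Ndufv2, a core subunit of the NADH-binding module, had 458, 488, 597 and 348 in the 4 controls and 513, 787, 529 and 697 in the 4 cannabis-exposed rats. The lowest cannabis values lay inside the range of the controls, and the log2 fold change was 0.42 ± 0.22 (SE), with a 95% interval of -0.063 to 0.90 (exact two-sided permutation P = 0.14, limma adjusted P = 0.999). Ndufv1, its partner that binds NADH and FMN, had 608, 409, 484 and 528 in the 4 controls and 386, 733, 346 and 328 in the 4 cannabis-exposed rats. Here 3 of the 4 cannabis rats were below every control while cannabis 2 was above them all, and the log2 fold change was -0.25 ± 0.26 (SE, exact P = 0.57). Ndufs1, the largest subunit of the complex, was low throughout, with 38.01, 46.7, 36.3 and 31.8 in the 4 controls and 28.6, 43.2, 55.1 and 73.7 in the 4 cannabis-exposed rats. Ndufs7, which holds the last iron-sulfur cluster before quinone, had 131, 92.2, 112 and 212 in the 4 controls and 196, 145, 67.9 and 80.6 in the 4 cannabis-exposed rats. Control 4 and cannabis 1 were the highest of their groups for Ndufs7, at about the same level.

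Among accessory subunits, Ndufb2 was the most abundant, with 885, 1112, 1429 and 1199.5 in the 4 controls and 1984, 1066, 1048 and 1264 in the 4 cannabis-exposed rats. Cannabis 1 was the highest of all, and the log2 fold change was 0.18 ± 0.24 (SE, exact P = 0.57). Ndufa8 had 1312, 1336, 1278 and 520.3 in the 4 controls and 631, 1722, 1146 and 1319 in the 4 cannabis-exposed rats. Control 4 and cannabis 1 stood below the other 6 rats, and the log2 fold change was 0.12 ± 0.36 (SE, exact P = 0.83). Ndufb5 showed the opposite order, with 1005, 1068, 799.6 and 1523 in the 4 controls and 1355, 878, 905 and 818 in the 4 cannabis-exposed rats, the 2 highest values being those of control 4 and cannabis 1. Its log2 fold change was -0.14 ± 0.24 (SE, exact P = 0.54). Ndufs4, an accessory subunit next to the NADH module whose loss is a known model of Leigh syndrome, had 116, 199.9, 153 and 101 in the 4 controls and 72.0, 171, 159 and 126 in the 4 cannabis-exposed rats, with overlapping groups and a log2 fold change of -0.13 ± 0.31 (SE, exact P = 0.74).

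Ndufs5, Ndufc2 and Ndufa5, also accessory subunits, were among the members with the smallest limma P, though none was called. Ndufs5 had 28.5, 61.1, 59.8 and 35.7 in the 4 controls and 50.9, 83.0, 55.1 and 76.8 in the 4 cannabis-exposed rats and a log2 fold change of 0.55 ± 0.30 (SE, exact P = 0.17). Ndufc2 had 356, 461, 567 and 298 in the 4 controls and 409, 777, 491 and 667 in the 4 cannabis-exposed rats and a log2 fold change of 0.48 ± 0.26 (SE, exact P = 0.17). Ndufa5 had 518, 601, 763 and 336 in the 4 controls and 654, 828, 537 and 823 in the 4 cannabis-exposed rats, with a log2 fold change of 0.40 ± 0.26 (SE, exact P = 0.20). In all of these the group ranges overlapped. Ndufb3 had a larger log2 fold change, 0.66 ± 0.61 (SE), which came with values from 11.97 to 74.5 in controls and from 20.7 to 143.6 in cannabis-exposed rats (exact P = 0.49). Ndufs5, Ndufb4, Ndufv3 and Atp5h each have a pseudogene with a symbol of its own in the data, so that the split of reads between gene and copy is uncertain. The Ndufs5-ps1 total was 22.4 ± 5.76 against 32.8 ± 24.2 (SD, n = 4) and that of Ndufb4-ps1 49.7 ± 7.41 against 45.5 ± 14.2 (SD, n = 4).

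Complex II, which is also the succinate dehydrogenase of the citrate cycle, had the lowest summed level, with 422, 461, 499 and 260.2 in the 4 controls and 328, 508, 392 and 444 in the 4 cannabis-exposed rats. The groups overlapped, with 410.4 ± 105 in controls against 418 ± 76.7 after cannabis (SD, n = 4) and a ratio of 1.02. Sdha, the flavoprotein that oxidizes succinate, had 194, 248, 259 and 117 in the 4 controls and 119, 258, 225 and 240.4 in the 4 cannabis-exposed rats. Control 4 and cannabis 1 were at almost the same low level and the other 6 rats between 194.5 and 259.2, and the log2 fold change was 0.046 ± 0.31 (SE, exact P = 0.89). Sdhb, the iron-sulfur subunit, had 24.1, 25.1, 48.3 and 43.7 in the 4 controls and 39.7, 55.1, 20.7 and 56.8 in the 4 cannabis-exposed rats, and its log2 fold change was 0.25 ± 0.37 (SE, exact P = 0.46). Sdhd, a membrane anchor, had 126, 142, 140.3 and 79.4 in the 4 controls and 152, 116, 114 and 121 in the 4 cannabis-exposed rats. Its log2 fold change was 0.067 ± 0.24 (SE, exact P = 0.86). Sdhc, the other anchor, had the smallest limma P of the complex, with 77.5, 45.5, 51.0 and 19.9 in the 4 controls and 17.4, 79.7, 31.5 and 26.1 in the 4 cannabis-exposed rats and a log2 fold change of -0.40 ± 0.48 (SE, exact P = 0.60). The ranges of Sdhc overlapped over most of their width.

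Complex III, the cytochrome bc1 complex, had summed levels of 4608, 4623, 6122 and 3325 in the 4 controls and 4035, 6708, 4352 and 5946 in the 4 cannabis-exposed rats, that is 4669.5 ± 1144 in controls against 5260.1 ± 1277 after cannabis (SD, n = 4). The ratio of the means was 1.13, and the difference was smaller than either SD. Control 4 was the lowest of all 8 rats and cannabis 2 the highest. Uqcr10, a small accessory subunit, had 779, 833, 1256 and 588 in the 4 controls and 1212, 1268, 704 and 1343 in the 4 cannabis-exposed rats, with a log2 fold change of 0.40 ± 0.27 (SE, exact P = 0.29). Cannabis 1, 2 and 5 stood near the highest control and cannabis 3 among the low controls. Uqcrc1, core protein 1, had 759.5, 432, 1237 and 634 in the 4 controls and 702, 1219, 438 and 1382 in the 4 cannabis-exposed rats, with a spread of about the same width in both groups and a log2 fold change of 0.25 ± 0.39 (SE, exact P = 0.60). Uqcr11 had 806, 829.6, 851 and 576 in the 4 controls and 561, 1202, 671 and 919 in the 4 cannabis-exposed rats, and again control 4 and cannabis 1 were lowest (log2 fold change 0.086 ± 0.25 SE, exact P = 0.71). Uqcrfs1, the Rieske iron-sulfur protein that hands electrons on within the complex, had 326, 339, 329.7 and 119 in the 4 controls and 132, 371, 297 and 204 in the 4 cannabis-exposed rats. For Uqcrfs1 too, control 4 and cannabis 1 lay below the other 6 rats.

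Complex IV, cytochrome c oxidase, had 12 subunit symbols, of which 10 passed the filter. The summed levels were 7406, 8428, 9331 and 9461 in the 4 controls and 10161, 9354, 7702 and 9594 in the 4 cannabis-exposed rats, overlapping between groups, with 8656 ± 952 in controls against 9203 ± 1056 after cannabis (SD, n = 4) and a ratio of 1.06. Cox6c, an accessory subunit, had the highest mean of any member, with 2816, 3459.6, 2989.8 and 4482 in the 4 controls and 4515, 2605, 3306 and 3436 in the 4 cannabis-exposed rats. Control 4 and cannabis 1 were the highest of their groups, at almost the same level, and the log2 fold change was 0.0085 ± 0.22 (SE), with a 95% interval of -0.47 to 0.49 (exact P = 0.94). Cox6a1, the isoform of most tissues other than muscle, had 1679, 1397, 2221 and 2212 in the 4 controls and 2246, 2822, 1427 and 2849.5 in the 4 cannabis-exposed rats, with a log2 fold change of 0.29 ± 0.25 (SE, exact P = 0.26). Cox5b had 1496, 1614, 1720.1 and 1225 in the 4 controls and 1402, 1781, 1390.4 and 1188 in the 4 cannabis-exposed rats and a log2 fold change of -0.076 ± 0.19 (SE, exact P = 0.69).

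Several complex IV subunits have tissue isoforms. Cox6b1 had the smallest limma P of the complex and 11.7, 4.79, 14.8 and 1.99 in the 4 controls and 6.21, 37.2, 7.87 and 17.7 in the 4 cannabis-exposed rats, with the highest value in cannabis 2, while the lowest library rested on 1 read. Its log2 fold change was 0.93 ± 0.66 (SE, exact P = 0.31). Its testis isoform Cox6b2 was near the limit of detection, with 5.85, 10.8, 4.03 and 0 in the 4 controls and 2.48, 6.64, 8.86 and 6.14 in the 4 cannabis-exposed rats, where 0 reads in control 4 leave room for up to 3 reads. Cox7a1, the muscle isoform of Cox7a, had 1.46, 2.39, 3.36 and 5.96 in the 4 controls and 0, 3.32, 1.97 and 2.30 in the 4 cannabis-exposed rats. Cox7b held 94.1% ± 3.04 of the Cox7b and Cox7b2 total in controls against 94.5% ± 2.47 after cannabis (SD, n = 4), with an exact two-sided permutation P = 0.80. Cox8a, the form found in most tissues, had 371, 474, 619 and 636 in the 4 controls and 758, 446, 480.2 and 749 in the 4 cannabis-exposed rats (log2 fold change 0.20 ± 0.25 SE, exact P = 0.49). Ndufa4 had 70.2, 51.5, 88.0 and 47.7 in the 4 controls and 37.3, 121, 73.8 and 70.7 in the 4 cannabis-exposed rats (log2 fold change 0.16 ± 0.34 SE, exact P = 0.60).

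Complex V, ATP synthase, had about the same summed level as complex I, with 14007, 15015, 16827 and 13306 in the 4 controls and 16375, 19151, 14121 and 17207 in the 4 cannabis-exposed rats. These came to 14789 ± 1529 in controls against 16713 ± 2083 after cannabis (SD, n = 4), a ratio of 1.13 with overlapping groups, in which cannabis 3 was below 2 of the controls. Of its 14 subunits 10 had log2 fold changes above 0, with a median of 0.13. Atp5b, the beta subunit with the catalytic sites, had 3304, 4225, 3492 and 2232 in the 4 controls and 2309.8, 4445, 4101 and 3368 in the 4 cannabis-exposed rats. Control 4 and cannabis 1 were the lowest at nearly the same level, and the log2 fold change was 0.096 ± 0.25 (SE, exact P = 0.71). Atp5a1, the alpha subunit beside it in the catalytic head, had 468, 436, 687 and 228 in the 4 controls and 303, 878, 462 and 659.8 in the 4 cannabis-exposed rats, and the same 2 rats were lowest. Its log2 fold change was 0.34 ± 0.37 (SE, exact P = 0.46).

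Atp5e, the epsilon subunit of the rotating stalk, had 2387, 2163, 1807 and 2941 in the 4 controls and 2973, 1953, 1760.4 and 1954 in the 4 cannabis-exposed rats. Here control 4 and cannabis 1 were the highest rats, again at nearly the same level, and the log2 fold change was -0.11 ± 0.22 (SE, exact P = 0.60). Atp5i, subunit e, which holds synthases together as dimers, had the smallest limma P of the complex, with 1471, 1718, 2909 and 1593 in the 4 controls and 3096, 3612, 1594 and 2908 in the 4 cannabis-exposed rats. Cannabis 1, 2 and 5 were close to or above the highest control and cannabis 3 was among the lower controls, with a log2 fold change of 0.54 ± 0.29 (SE) and a 95% interval of -0.090 to 1.16 (exact P = 0.14). Atp5l, subunit g of the same dimer contact and the first promoter printed above, had 866, 1026, 1137 and 681 in the 4 controls and 782, 1606, 913 and 1172 in the 4 cannabis-exposed rats (log2 fold change 0.24 ± 0.25 SE, exact P = 0.43). The Ndufs6 and Ndufa6 genes of the other printed promoters had log2 fold changes of 0.045 ± 0.27 (SE, exact P = 0.80) and 0.30 ± 0.22 (SE, exact P = 0.23).

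The c ring, the proton-driven rotor, is made from identical proteins coded by 3 genes that differ in the leader peptide. Atp5g1 gave 68.7% ± 5.68 of the c ring total in controls against 72.9% ± 6.56 after cannabis (SD, n = 4, exact two-sided permutation P = 0.40). Atp5g2 gave 18.0% ± 7.59 and 14.0% ± 7.89 (exact permutation P = 0.46), and Atp5g3 gave 13.3% ± 3.29 and 13.1% ± 3.38 (exact permutation P = 0.91). In normalized counts Atp5g1 had 452, 447, 617 and 248 in the 4 controls and 356, 735, 426 and 559 in the 4 cannabis-exposed rats, Atp5g2 105 ± 17.3 against 93.1 ± 39.8 (SD, n = 4) and Atp5g3 85.1 ± 30.7 against 97.5 ± 54.0 (SD, n = 4). Atp5g1 was thus the main source of c ring mRNA ends in every rat, with a share of at least 61.0%.

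**Figure D2:**
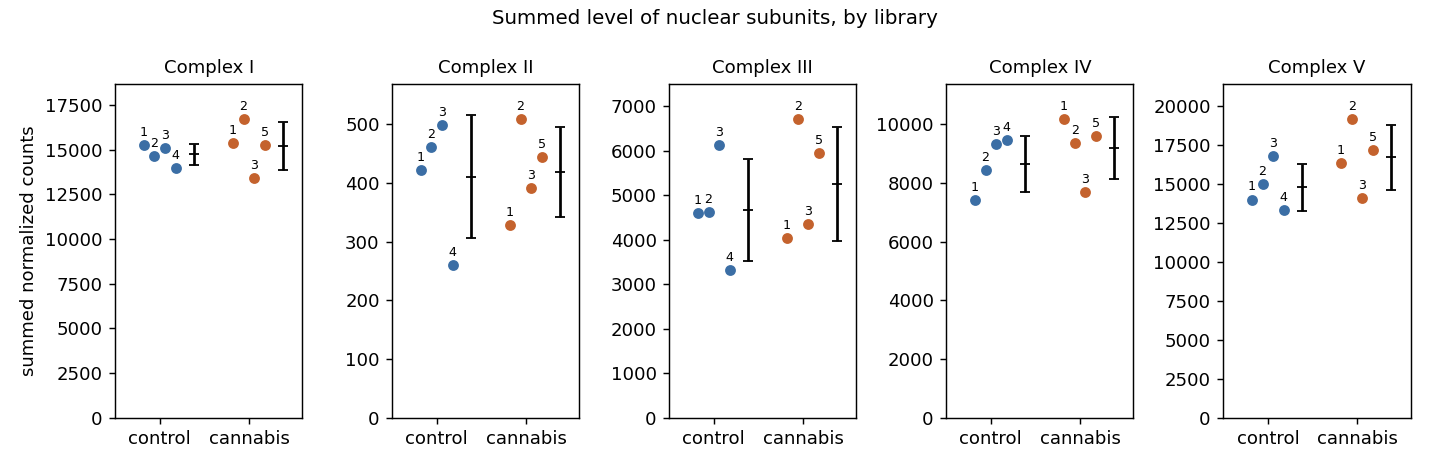
Summed normalized counts (vertical axes, each from 0) of the subunits of complexes I to V chosen by name, in each library. Controls are in blue and cannabis-exposed rats in orange, numbered by replicate. Nuclear subunits outside the name pattern, such as Cyc1 and Cox4i1, are not in the sums. Black marks give the group mean and SD, and in every complex the 2 groups overlap.

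The 6 factors were not called either. Cox7a2l, which takes part in joining complexes into supercomplexes, had 1599, 1555, 1104 and 1579 in the 4 controls and 1591, 1624, 1408 and 1437 in the 4 cannabis-exposed rats, with a log2 fold change of 0.067 ± 0.18 (SE, exact P = 0.77). The complex II assembly factors Sdhaf2, Sdhaf3 and Sdhaf4 had log2 fold changes of -0.15 ± 0.27 (SE), 0.033 ± 0.33 (SE) and -0.15 ± 0.26 (SE), with exact P of 0.51, 1.00 and 0.71. Atp5s (coupling factor B) had 14.5 ± 3.62 against 15.1 ± 3.52 (SD, n = 4) and Atp5sl, since renamed as a complex I assembly factor, 78.5 ± 12.7 against 85.8 ± 14.3 (SD, n = 4).

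The members were also grouped by their number of polyadenylation sites. The 27 symbols with 1 site, of which 23 were tested, had a median log2 fold change of 0.03. The 26 with 2 sites (25 tested) had a median of 0.07, the 19 with 3 sites 0.13 and the 14 with 4 to 10 sites 0.04. The ratio of the summed means was 1.04, 1.09, 1.09 and 1.14 in the same order, and the ranges of the sums overlapped in each.

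Control 4 and cannabis 1 stood apart from the other rats of their groups in many members. Control 4 was the lowest control in 41 of 81 members (50.6%) and in 42.7% of all symbols. Cannabis 1 was the lowest cannabis rat in 36 members (44.4%) and in 38.1% of all symbols. Both were lowest in 28 members (34.6%), against 23.99% of all symbols. Among them were Atp5a1, Atp5b, Sdha, Uqcrc2 and Uqcrfs1, and also the pseudogenes Ndufb4-ps1 and Ndufs5-ps1. Both were highest in 11 members (13.6%) and in 13.2% of all symbols, namely Atp5e, Atp5g2, Cox6c, Cox8a, Ndufa9, Ndufa11, Ndufb1, Ndufb5, Ndufb9, Ndufs7 and Ndufs8. Over the members the deviations of these rats from their group means correlated with r = 0.60 (n = 81 members), and over all symbols with r = 0.49. Such values share the libraries' depth and scaling, and deviations within a group sum to 0, so they are given as a description.

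Other measurements moved with the same libraries. Control 4 had the fewest reads, and cannabis 1, with 1919709, the fewest in its group. Symbols of mitochondrial genes took 6.76% of the reads of control 4 and 7.33% of those of cannabis 1, the lowest shares of their groups, against up to 9.99%. Their part in the levels of the members was not tested. Control 3 and cannabis 2 showed the reverse tendency and were both the highest of their groups in 20 members (24.7%) and in 13.9% of all symbols (r = 0.48 over the members). Control 2 and cannabis 3 also deviated together, with r = 0.57 over the members and 0.24 over all symbols. Both were the lowest of their groups in 11 members (13.6%) and in 6.93% of all symbols. They were both the highest in 3 members (3.70%) and in 6.11% of all symbols. Without control 4 and cannabis 1, 0 of 81 members had P under 0.01 and the median log2 fold change of the members was 0.05.

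**Figure D3:**
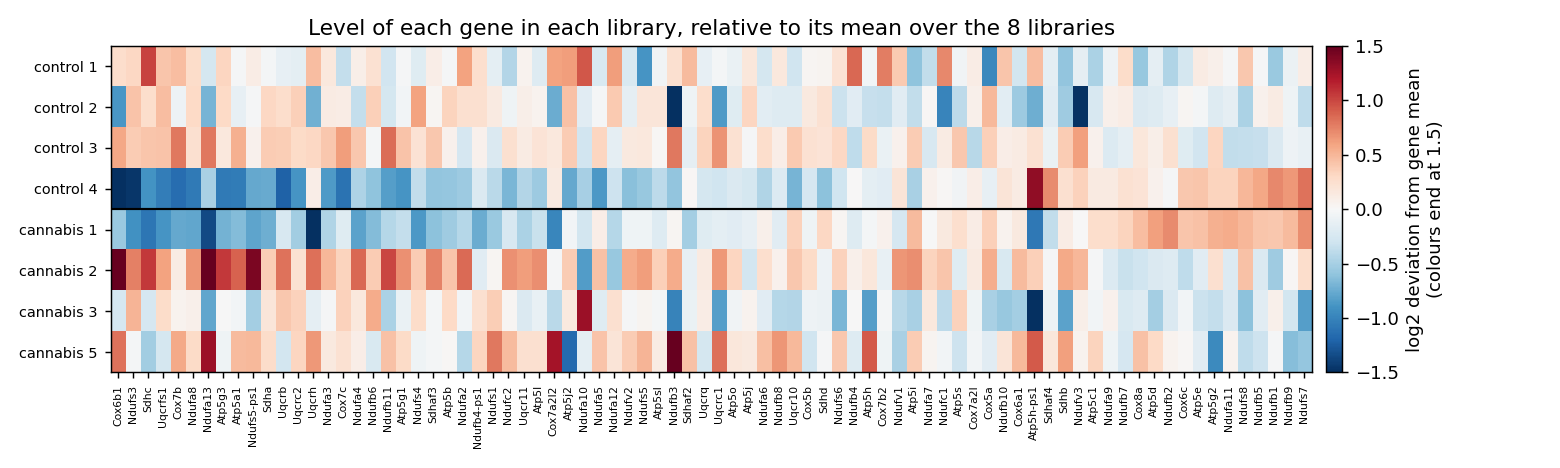
Level of 80 of the 81 tested genes (columns) in each library (rows), as the log2 deviation from the gene's mean over the 8 libraries, in red above and blue below the mean. Genes are ordered by the summed deviation of control 4 and cannabis 1, so the 2 rows run from blue to red by construction, and no column separates the 4 upper rows (controls) from the 4 lower rows (cannabis).

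Transcripts of the members mostly ended at 1 site. Of the 208 sites, 137 passed the site filter (a mean of at least 5 normalized counts). In the 59 members with at least 2 sites the most read site held a median of 96.0% of the reads, and it held over 90% in 37 of them (62.7%). Over the 9568 tested symbols with at least 2 sites the median was 65.3%, and 17.5% were over 90%. The tested members had a median of 2 sites and all tested symbols one of 3. Among symbols with 2 sites the median was 98.7% in the members and 86.1% in all, with 3 sites 91.3% and 70.7%, and with 4 to 10 sites 85.1% and 54.2%. Among the 1000 most read symbols with at least 2 sites the median was 98.9% in 28 members and 91.8% in all 821. These shares are descriptions and were not tested.

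**Figure D4:**
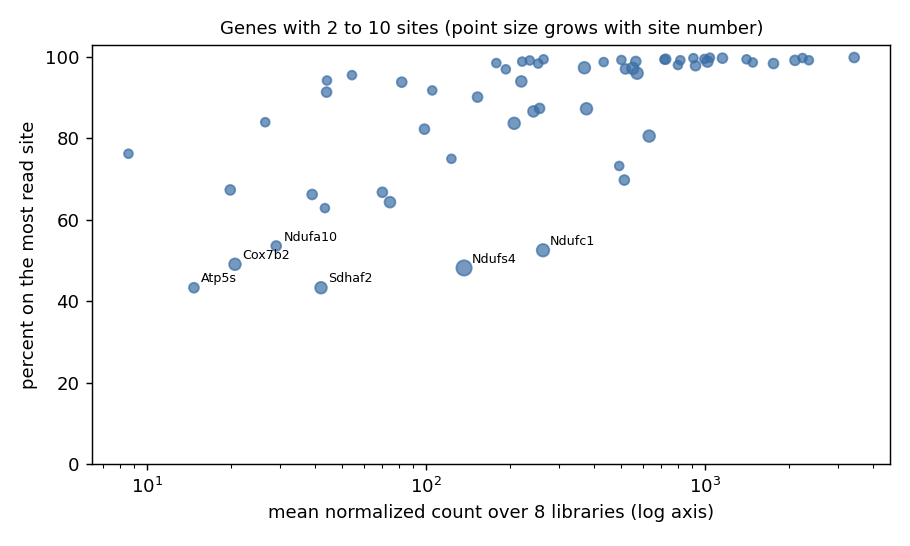
Share of a gene's normalized counts on its most read site (percent, vertical axis) against its mean level over the 8 libraries (normalized counts, logarithmic horizontal axis), for the 59 members with at least 2 sites, as 1 point each with larger points for more sites. Most points lie near the top, with 37 of 59 over 90% and 4 under 50%.

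The exceptions were few. The most read site held less than 50% in Sdhaf2 (43.3%), Atp5s (43.3%), Ndufs4 (48.2%) and Cox7b2 (49.1%), and 52.5% in Ndufc1. Ndufs4 had the most sites of any member, 10, of which the first in order of reads had 52.6, 85.0, 88.0 and 51.6 in the 4 controls and 37.3, 83.0, 75.8 and 56.1 in the 4 cannabis-exposed rats and the second 40.2, 61.1, 52.4 and 15.9 in the 4 controls and 13.7, 78.4, 42.3 and 30.0 in the 4 cannabis-exposed rats. Both sites were low in control 4 and cannabis 1, and neither was called (exact P = 0.63 and 0.91). Ndufc1, with 6 sites, had 315, 39.5, 103.4 and 129 in the 4 controls and 155, 163, 82.7 and 119 in the 4 cannabis-exposed rats on its most read site. The high value of control 1 and the low one of control 2 spanned the range of the cannabis-exposed rats. Ndufa5, with 5 sites, had 80.6% on the most read one.

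Single sites were tested as well. Of the 137 member sites, 0 had P under 0.01 and 1 had P under 0.05, against 86 of 39196 sites (0.219%) and 891 sites (2.27%). At P under 0.05 the count was 6 without cannabis 3 (4.38% of the member sites against 2.57% of all sites) and 4 without control 3 (2.92% against 3.58%). It was 2 without cannabis 1 (1.46% against 3.91%), 1 or 0 without each other rat and 0 with the replicate block. The 6 were sites of Atp5i, Atp5o, Sdhb, Uqcr10, Cox6a1 and Ndufa11, of which that of Atp5i had P under 0.01. The one site that passed with all 8 rats was the third in order of reads of Atp5o, whose protein (OSCP) links the head of ATP synthase to its peripheral stalk. It had 6.58, 3.59, 7.39 and 5.96 in the 4 controls and 12.4, 15.9, 9.84 and 13.8 in the 4 cannabis-exposed rats, without overlap, and a log2 fold change of 1.04 ± 0.41 (SE), with an exact P = 0.0286 and a limma adjusted P = 1.00. That exact P is the smallest possible and restates the lack of overlap. The share of all sites without overlap was not computed. At these levels a value rests on few reads, and the Atp5o total had 1681 ± 248 against 1848 ± 280.0 (SD, n = 4).

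The use of the most read site relative to the other sites of a gene was tested for 41 members. None had P under 0.01 and 0 had P under 0.05, against 16 of 6766 symbols (0.236%) and 171 symbols (2.53%). The smallest limma P was that of Cox7c, whose log2 ratio of the most read site to the rest was higher by 1.33 ± 0.62 (SE) in cannabis-exposed rats (exact P = 0.11). Sdhb followed with 1.36 ± 0.65 (exact P = 0.14) and Uqcr10 with 1.33 ± 0.68 (exact P = 0.14), and the 95% interval of each included 0. With 1 rat left out at a time the count at P under 0.05 was 2 without control 3 (Sdhb and Cox7c, 4.88% of the members against 3.92% of all symbols). It was also 2 without cannabis 1 (Cox7c and Uqcr10, 4.88% against 4.01%) and 2 without cannabis 3 (Sdhb and Cox7c, 4.88% against 2.78%). It was 1 without control 1 (Sdhb, 2.44% against 1.64%) and 0 without each other rat.

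Genes that act with the members were read from lists of names. Of the 6 tested subunits and partners outside the name pattern, 0 had P under 0.01 and 1 (Usmg5) had P under 0.05, against 2.06% of all symbols. The lists of assembly factors, biogenesis regulators and citrate cycle genes and carriers had 0 genes with P under 0.05. Cyc1, the cytochrome c1 of complex III, had 956, 978, 822 and 695 in the 4 controls and 549, 1086, 916 and 530.0 in the 4 cannabis-exposed rats (log2 fold change -0.22 ± 0.25 SE, exact P = 0.54). Usmg5, a small protein of ATP synthase dimers, had the smallest limma P, with 204, 153, 105 and 240.3 in the 4 controls and 128, 111, 97.4 and 111 in the 4 cannabis-exposed rats and a log2 fold change of -0.59 ± 0.26 (SE, exact P = 0.11). It was not called. Of 13 complex I assembly factors 0 had P under 0.01, and the smallest was that of Ecsit, with 43.9, 23.9, 45.0 and 23.8 in the 4 controls and 19.9, 53.8, 75.8 and 187 in the 4 cannabis-exposed rats (log2 fold change 0.92 ± 0.54 SE, exact P = 0.17), where cannabis 5 was far above the rest. Tmem126b, the most read of them, had a log2 fold change of -0.078 ± 0.25 (SE, exact P = 0.71).

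Of 22 assembly factors of complexes III to V 0 had P under 0.01. Pet100, an assembly factor of complex IV, had 113, 108, 114 and 125 in the 4 controls and 90.7, 67.1, 99.4 and 102 in the 4 cannabis-exposed rats, without overlap, and a log2 fold change of -0.37 ± 0.21 (SE, exact P = 0.0286). This exact P restates the lack of overlap, which was seen in 224 of the 12114 symbols (1.85%). The limma P of Pet100 was 0.10, the smallest of the list. Coa5, the most read of the list, had a log2 fold change of 0.17 ± 0.20 (SE, exact P = 0.34). Of 9 tested genes of the mitochondrial genome 0 had P under 0.01 and 1 (ND6) had P under 0.05, against 2.06% of all symbols. ND6, a complex I subunit, had 24.9, 11.97, 24.8 and 15.9 in the 4 controls and 27.3, 49.2, 24.6 and 31.5 in the 4 cannabis-exposed rats (log2 fold change 0.75 ± 0.34 SE, exact P = 0.0857), and the 12S ribosomal RNA mt-Rnr1, the most read, had 126315, 99588, 79922 and 88582 in the 4 controls and 85286, 63170.0, 92997 and 77249 in the 4 cannabis-exposed rats (log2 fold change -0.30 ± 0.22 SE, exact P = 0.17).

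Of 10 tested regulators of mitochondrial biogenesis 0 had P under 0.01, with a median log2 fold change of -0.004. Pprc1, a coactivator related to PGC-1, had the smallest limma P, with 37.3, 29.9, 32.2 and 73.5 in the 4 controls and 93.1, 46.5, 41.3 and 53.8 in the 4 cannabis-exposed rats (log2 fold change 0.46 ± 0.34 SE, exact P = 0.40), and Polrmt, the mitochondrial RNA polymerase, was the most read (log2 fold change -0.032 ± 0.24 SE, exact P = 1.00). Nrf1 had 21.9, 35.9, 41.0 and 61.6 in the 4 controls and 47.2, 46.5, 38.4 and 25.3 in the 4 cannabis-exposed rats, with a log2 fold change of 0.024 ± 0.34 (SE, exact P = 0.97). Of 20 tested genes of the citrate cycle and of mitochondrial carriers 0 had P under 0.01. Suclg1, a subunit of succinyl-CoA ligase, had a log2 fold change of 0.61 ± 0.34 (SE, exact P = 0.20). Slc25a4, the ATP and ADP carrier and the most read of this list, had 1379, 1611, 1683 and 1517 in the 4 controls and 1681, 1412, 1631 and 1550.0 in the 4 cannabis-exposed rats and a log2 fold change of 0.020 ± 0.16 (SE, exact P = 0.80).

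The cell content of the samples was read from marker lists. In whole tissue, fewer cells of a type and less RNA per cell cannot be told apart. Of 5 neuronal, 6 astrocyte, 5 oligodendrocyte, 4 microglial, 1 endothelial and 3 pituitary markers tested, 0 had P under 0.01, and of the 3 choroid plexus markers in the data none passed the filter. Summed neuronal markers were from 2038 to 2987 in controls and from 1821 to 2707 in cannabis-exposed rats. Of 6 hypothalamic markers 2, the hormone genes Avp and Oxt, were higher in cannabis-exposed rats at P under 0.01, and the summed list was from 2562 to 4938 in controls and from 6609 to 8685 in cannabis-exposed rats. Of 4 tested markers of midbrain dopamine neurons 3, Slc6a3, Th and En1, were lower, of which only Slc6a3 had an adjusted P under 0.1, and the summed list (5 genes) was from 651.2 to 849.5 in controls and from 140.3 to 327.2 in cannabis-exposed rats. The separation of the hypothalamic sum rested on Avp, which encodes vasopressin. Without it the sum of the other 5 genes was 1856, 1384, 1930.3 and 1096 in the 4 controls and 1788, 3331, 2266 and 2371 in the 4 cannabis-exposed rats, with cannabis 1 inside the range of the controls. Both lists were written with earlier results of these libraries known, those for Avp, Th and Slc6a3 among them, and are not independent evidence of direction. The part of these lists in the levels of the members was not tested.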

How the data were processed

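WTTS-Seq libraries of 4 cannabis-exposed rats and 4 air-treated controls were compared. The authors used the FASTX Toolkit for read filtering, removed Ts at read starts, mapped with TMAP 3.4.1 to Rnor_6.0, clustered read ends into sites of at least 16 reads and assigned genes with Cuffcompare 2.2.1. The values the authors deposited are a normalized signal per site, the reads divided by a DESeq2 size factor. In each library 100% of values came out as whole reads within 0.01. The strand setting of the gene assignment is not given in the sources used here, and the files hold no positions. Sites were therefore named by their order of reads, and overlapping genes could not be separated.

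Sites were summed per symbol. Gene totals with a mean of at least 10, sites with a mean of at least 5, and the most read site relative to the rest (total of at least 20, rest of at least 5) were tested with limma 3.58.1 (R 4.3.3, trend) on log2(normalized count + 1), which understates changes of low genes. Calls were P under 0.01 and Benjamini-Hochberg adjusted P under 0.1. On the recovered reads edgeR 4.0.16 called 33 genes and DESeq2 1.42.0 called 59 at P under 0.01. Depth is given with the results, and the median over sites was 34 reads in total. Alternatives were other pseudocounts, filters and scalings, the most read site only, no trend, a replicate block, each library left out and, chosen after seeing the data, control 4 and cannabis 1 left out and the hypothalamic list summed without Avp.

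Members and lists were chosen with earlier results of these data known. Full values were set to be given for the 3 most read members and the smallest P of each complex, the 3 members with the most sites, isoform families, factors, called members or sites, and the smallest P and most read gene of each list. Other members were named after their values were seen. Figures used Python 3.11.15 and matplotlib 3.10.9. The values of 1 member are not reported here, and the counts and sums include it.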

Additional observations from a re-analysis of the deposited data

Results flagged for a closer look

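In 7 of the 100 groups of 4 rats tested over the named members and list genes, 1 rat lay apart from the other 3 by more than Dixon's 95% critical value for the gap as a share of the range, where chance gives about 1 in 20. Control 4 was low for Ndufa8, at 520.3 normalized counts against 1278 in the next control. It was also low for Uqcr11, at 575.9 against 806.3. Control 4 was high for Sdhaf4, at 119.2 against 67.8, and for Pprc1, at 73.5 against 37.3. Cannabis 1 was high for Ndufb5, at 1355 against 905.3 in the next cannabis-exposed rat, and for Atp5e, at 2973 against 1954. Control 3 was low for Cox7a2l, at 1104 against 1555. Each value rests on 1 library.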

How the results depend on the processing

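No member total had P under 0.01 in any alternative that was run, while from 0 to 4 member totals had P under 0.05 with a rat left out. The median log2 fold change of the members ranged from -0.039 (replicate block) to 0.15 (without control 3), with values below 0 also for TMM factors (-0.0037) and without cannabis 2 (-0.035). Member sites at P under 0.01 numbered 0 to 1 over the fits that left out a rat, the 1 being without cannabis 3.

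Over all symbols, the counts at P under 0.01 were 50 without the filter, 15 with a mean of at least 50, 19 with the most read site only, 45 without the trend and 59 in DESeq2, and from 17 to 54 with a rat left out (17 without control 1, 49 without control 3, 54 without cannabis 1 and 19 without cannabis 5). At adjusted P under 0.1 they were 2 in edgeR, 7 in DESeq2, 0 without control 4 and cannabis 1, and 0 to 2 with a rat left out. The causes were not tested.

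Whether the replicate numbers pair the rats is not known. Same-numbered rats deviated with r of -0.23, 0.089 and -0.070 over all symbols. Differently numbered rats had r from -0.39 to 0.49, and such values share depth and scaling, so they cannot decide it. With the replicate number as a block, 10 symbols had P under 0.01 and 2 an adjusted P under 0.1, with 0 members. In this fit control 4 and cannabis 5 have no partner.

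Some log2 fold changes of members that were not called changed sign. With the block these were Ndufa8 -0.28, Ndufb5 0.11, Sdha -0.28, Sdhd -0.11, Uqcrc1 -0.039, Uqcr11 -0.11, Atp5b -0.070, Atp5e 0.044, Atp5g1 -0.052, Atp5g2 0.074, Atp5g3 -0.14, Atp5sl -0.0016, Sdhaf3 -0.14. With TMM factors they were Sdha -0.025, Sdhd -0.0037, Cox6c -0.063, Ndufc1 -0.0075, Cox7a2l -0.0043, Sdhaf3 -0.037, Atp5s -0.014. In edgeR they were Sdha -0.036, Sdhd -0.027, Cox6c -0.054, Ndufc1 -0.11, Cox7a2l -0.021, Sdhaf3 -0.019, Atp5s -0.044, and in DESeq2 Sdha -0.033, Sdhd -0.030, Cox6c -0.051, Ndufc1 -0.10, Cox7a2l -0.017, Sdhaf3 -0.018, Atp5s -0.048. With equal totals it was Cox6c -0.025, and with the most read site only Sdha -0.020, Ndufa4 -0.093. Without control 4 and cannabis 1 they were Sdhd -0.22, Sdhaf4 0.16, Atp5s -0.032. With a rat left out in turn, sign changes lay within these ranges: Ndufb2 -0.023 to 0.29, Ndufa8 -0.21 to 0.40, Ndufb5 -0.30 to 0.028, Sdha -0.20 to 0.30, Sdhd -0.12 to 0.15, Uqcr11 -0.11 to 0.26, Cox6c -0.13 to 0.14, Cox5b -0.18 to 0.012, Atp5b -0.082 to 0.29, Atp5e -0.28 to 0.0061, Ndufs4 -0.28 to 0.13, Ndufc1 -0.25 to 0.32, Ndufa4 -0.10 to 0.45, Atp5g2 -0.49 to 0.0091, Atp5g3 -0.19 to 0.40, Cox7a2l -0.061 to 0.12, Sdhaf4 -0.23 to 0.062, Sdhaf3 -0.21 to 0.24, Atp5s -0.071 to 0.19.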

Other observations

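Ndufa10, an accessory subunit of complex I, had a site whose level differed between rats and not between groups. The second site in order of reads had 30.7 normalized counts in control 1 and 48.2 in cannabis 3, and between 0 and 3.84 in the other 6 rats. The most read site had from 11.8 to 19.2 in all 8 rats. Ndufa10l1, a gene named after its likeness to Ndufa10, had 13.9 in control 1 and 0.98 in cannabis 3, the latter from a single read, and 0 reads in the other 6 rats. These values were singled out after they were seen and were not tested.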
